A study of Mus musculus with 6 samples.

Results

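The genes described here encode the tissue-specific and the widely used versions of 3 small subunits of cytochrome c oxidase: Cox6a2, Cox7a1 and Cox8b are the muscle isoforms, and Cox6a1, Cox7a2, Cox7a2l and Cox8a are set against them as the ubiquitous ones. They were taken by symbol: a probe set belongs here when the platform annotation names a single gene for it and that gene is in this family. All 7 genes had at least 1 such probe set, which gave 14 of the 45037 probe sets tested and 7 of the 18193 genes with a probe set of a single symbol. The 3 muscle genes have 4 probe sets and the 4 ubiquitous genes have 10.

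Cytochrome c oxidase, complex IV of the mitochondrial respiratory chain, passes electrons from cytochrome c to oxygen and pumps protons. Its catalytic core is encoded by mitochondrial DNA, and the surrounding nuclear-encoded subunits adjust its activity, stability and assembly into dimers and supercomplexes. Subunits 6a, 7a and 8 exist in an isoform of heart and skeletal muscle and in an isoform of most other tissues, which is often called the liver form, and skeletal muscle is known to take up the muscle forms as it matures.

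The cells were C2C12, a mouse myoblast line that withdraws from the cell cycle and fuses into multinucleated myotubes when serum is lowered. Differentiated cells were collected on day 6 in 2% horse serum, and proliferating cells were collected in 20% serum. Each group had 3 RNA samples, each put on its own array. Neither group carried a transgene or received another agent, and serum, days in culture and differentiation changed together and cannot be told apart. The RNA of 3 plates was pooled and 3 of these pools went into each sample, and p-values therefore measure the spread between such pools of 1 cell line.

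Values are MAS5 signals on a linear scale, and changes are differences of log2(signal + 15), differentiated minus proliferating. A call means an adjusted p under 0.05 in limma, with Benjamini-Hochberg adjustment over all probe sets. Median signals were 72.3 to 81.4 on the differentiated arrays and 68.0 to 73.0 on the proliferating arrays, and log2 signals correlated with a Pearson's r between 0.937 and 0.942 for arrays of the same group, over probe sets, which are not independent. The median change over all probe sets was 0.05. The brightest of 27 bacterial control probe sets had a signal of 51.9 to 87.0, depending on the array, and a signal at or below it was read as background, a limit chosen with the values known. All 8 myotube markers (Myog, Mef2c, Myh3, Acta1, Ckm, Tnnt3, Tnnc2 and Mymk) were higher in differentiated cells, and their summed signal was 60671.4 to 65460.6 on the differentiated arrays against 783.1 to 853.1 on the proliferating arrays. Of 4 genes listed as myoblast markers Des was higher (log2 fold change 0.82), Myod1 (0.28) and Myf5 (-0.10) were not called, and Pax7 was at background on all arrays. The paper counts desmin, the product of Des, among its markers of differentiation, so Des does not mark myoblasts alone. The lysate held every cell of the dish, fused or still mononucleated, so more cells of a type and more RNA per cell cannot be told apart.

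The 3 muscle genes lie on mouse chromosome 7 and the 4 ubiquitous genes on 4 other chromosomes (RefSeq, GRCm38.p6). Cox6a2 spans chr7:128205435-128206366, Cox7a1 chr7:30184171-30186030 and Cox8b chr7:140898942-140900446. Cox6a1 spans chr5:115345652-115348958, Cox7a2 chr9:79755241-79771422, Cox7a2l chr17:83501917-83514333 and Cox8a chr19:7215158-7217616. RefSeq promoters, from 250 bases before to 50 bases after the annotated start, were matched for 6 of the 7 genes. The entry for Cox6a2 was missing.

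The promoters of Cox8b and Cox8a are shown as the pair with a called muscle member, and those of Cox7a1 and Cox6a1 as a muscle promoter whose gene was not called and as the most GC-rich of the 6. Each is printed 5′ to 3′ on the gene's strand. Capitals mark an E-box (CANNTG, bound by myogenic factors of the MyoD family), a TATA box (TATAAA), the core bound by nuclear respiratory factor 1 (GCATGCGC) or an ETS core (CCGGAA, bound by GA-binding protein among others), found on either strand, and neighbouring capitals can hold overlapping matches. The windows are chr7:140900397-140900696 (minus strand) for Cox8b, chr19:7217567-7217866 (minus strand) for Cox8a, chr7:30183921-30184220 (plus strand) for Cox7a1 and chr5:115348909-115349208 (minus strand) for Cox6a1.
Cox8b: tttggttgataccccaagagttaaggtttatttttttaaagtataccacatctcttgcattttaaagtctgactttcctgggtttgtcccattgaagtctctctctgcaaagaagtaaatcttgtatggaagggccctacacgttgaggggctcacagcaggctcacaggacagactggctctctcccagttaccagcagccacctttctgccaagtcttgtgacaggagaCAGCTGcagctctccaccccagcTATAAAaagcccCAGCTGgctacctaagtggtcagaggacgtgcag
Cox8a: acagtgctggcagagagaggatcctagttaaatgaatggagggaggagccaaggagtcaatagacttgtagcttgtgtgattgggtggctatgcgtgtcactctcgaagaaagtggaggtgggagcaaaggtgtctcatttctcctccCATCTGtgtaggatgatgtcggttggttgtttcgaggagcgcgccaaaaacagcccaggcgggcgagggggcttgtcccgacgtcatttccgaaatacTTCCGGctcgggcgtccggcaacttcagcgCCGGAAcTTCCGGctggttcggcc
Cox7a1: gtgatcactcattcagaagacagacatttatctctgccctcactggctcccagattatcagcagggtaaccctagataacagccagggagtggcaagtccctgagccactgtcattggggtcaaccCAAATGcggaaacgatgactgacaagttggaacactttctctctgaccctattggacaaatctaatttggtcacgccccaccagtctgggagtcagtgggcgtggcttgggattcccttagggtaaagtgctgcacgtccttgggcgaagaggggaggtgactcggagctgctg
Cox6a1: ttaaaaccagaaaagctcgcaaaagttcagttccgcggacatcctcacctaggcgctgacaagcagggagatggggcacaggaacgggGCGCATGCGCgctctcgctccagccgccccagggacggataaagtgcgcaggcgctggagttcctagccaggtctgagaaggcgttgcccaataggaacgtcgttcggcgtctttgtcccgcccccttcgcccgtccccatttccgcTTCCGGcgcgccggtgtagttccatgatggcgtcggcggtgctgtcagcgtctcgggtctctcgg

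The Cox8b window held 2 E-boxes, both CAGCTG, and a TATA box that lies after the annotated start, at position 5 to 10. CAGCTG occurs in 16.3% of the 32851 RefSeq promoters of this length, TATAAA in 13.6% and the general E-box in 72.3%. Among the 6 windows, CAGCTG and TATAAA were found in that of Cox8b alone. The Cox8a window held 3 ETS cores, a sequence found in 14.9% of all promoters, together with 1 E-box and 1 CCAAT box (CCAAT, 37.4%). The Cox6a1 window held a pair of overlapping matches to GCATGCGC, a sequence found in 2.71% of all promoters, with 1 ETS core, 2 Sp1 boxes (GGGCGG, 35.7%), 1 CCAAT box and no E-box. The Cox7a1 window held 1 E-box and 2 CCAAT boxes. Cox7a2 had 1 E-box, 1 ETS core and 1 Sp1 box, and Cox7a2l had 1 E-box and 2 Sp1 boxes. The MEF2 consensus (0.557% of all promoters) and the estrogen-related receptor half-site AAGGTCA (4.72%) were found in none of the 6. GC content was 48.3% for Cox8b and 53.0% for Cox7a1, against 63.0% for Cox6a1, 56.7% for Cox7a2, 55.0% for Cox7a2l and 56.0% for Cox8a, where the median of all promoters was 52.7%. These matches are letters in a window, from motifs chosen after the sequences were seen.

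**Figure D1:**
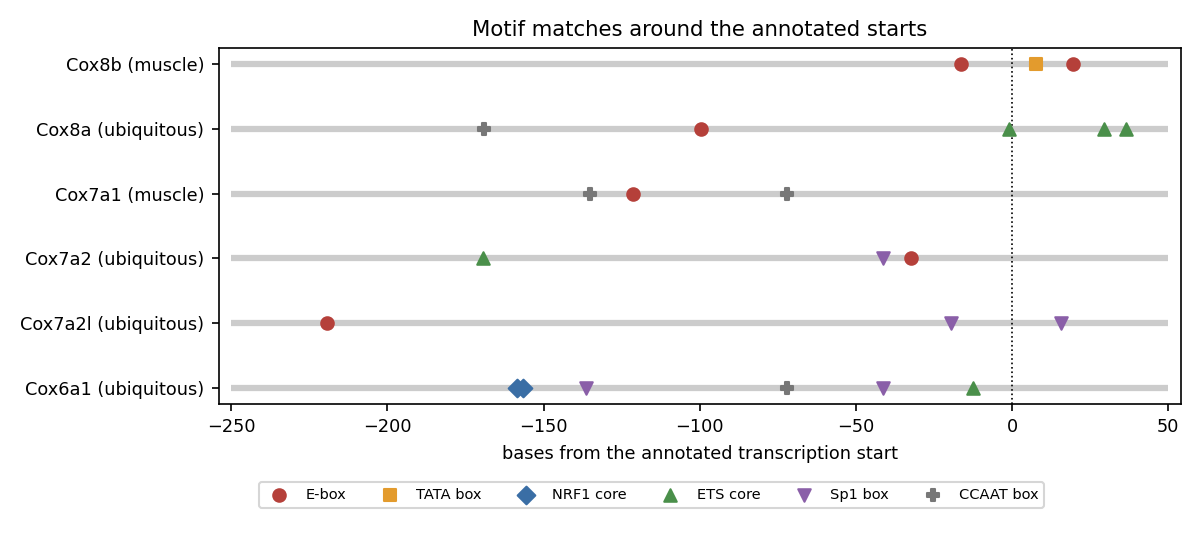
Motif matches (symbols) in the promoter windows of 6 genes (rows), by distance in bases from the annotated start (dotted line). Cox8b, in the top row, is the only window with a TATA box match and has its 2 E-boxes on either side of the start, and Cox6a1, in the bottom row, is the only window with matches to the nuclear respiratory factor 1 core and has no E-box.

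Cox6a2 and Cox8b were higher in differentiated cells, and Cox7a1 and the 4 ubiquitous genes were not called in either direction. Of the 14 probe sets, 3 were called higher, none lower and 11 not called, where 12.6% of all probe sets were called, 6.14% higher and 6.43% lower. The 3 that passed are both probe sets of Cox6a2 and the single probe set of Cox8b. Each gene is represented by its brightest probe set in what follows, unless another is named.

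Cox6a2, the muscle form of subunit 6a, had signals of 1634.8, 1572.7 and 1932.6 on the differentiated arrays, against 125.7, 132.4 and 80.2 on the proliferating arrays. The groups lay far apart, and all 6 arrays were above the bacterial controls. The means were 1713 ± 192.4 in differentiated cells and 112.8 ± 28.4 in proliferating cells (SD, n = 3 each). The log2 fold change was 3.78 (standard error 0.17, limma adjusted p = 1.7e-08), which is a fold of 13.7 (95% interval 10.6 to 17.8). This was the 67th largest rise among all probe sets. The second Cox6a2 probe set, 1457633_x_at, gave signals of 181.3, 177.4 and 236.5 on the differentiated arrays against 5.1, 7.1 and 11.0 on the proliferating arrays. Proliferating cells were at background there on every array, so the change was at least 2.97-fold. For this bound both groups' means were taken after raising signals below the controls to them. The fit without raising gave a log2 fold change of 3.23 (limma adjusted p = 0.00019), which rests on those background signals.

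Cox6a1, the ubiquitous form of the same subunit, was not called. Its signals were 9412.1, 9788.8 and 10302.0 on the differentiated arrays, against 11273.1, 12533.8 and 13097.7 on the proliferating arrays. Every differentiated array lay below every proliferating array, as at 12.3% of all probe sets. The means were 9834 ± 446.7 and 12300 ± 934.2 (differentiated and proliferating, SD, n = 3 each), and the log2 fold change of -0.32 (standard error 0.11, 95% interval -0.55 to -0.09) missed the threshold with a limma adjusted p of 0.073. The call depends on the method. The adjusted p was 0.015 without dim probe sets in limma. It was 0.027 in a regularized test of the kind the study's methods name, run here on MAS5 signals and not on their GCRMA values. Quantile normalization gave a smaller change of -0.13. At the second probe set, 1417418_s_at, the groups overlapped and the log2 fold change was -0.25 (limma adjusted p = 0.33).

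Cox8b, the muscle form of subunit 8, had signals of 368.6, 433.3 and 602.3 on the differentiated arrays, against 15, 8.5 and 66.0 on the proliferating arrays. In proliferating cells replicate 3 alone was above its control, and the other 2 arrays were at background. The means were 468.1 ± 120.7 in differentiated cells and 29.83 ± 31.49 in proliferating cells (SD, n = 3 each). The log2 fold change was 3.62 (standard error 0.42, 95% interval 2.70 to 4.54, limma adjusted p = 6.9e-05), the 75th largest rise. Its size depends on how signals near background are handled: the fold was 12.3 as fitted and 6.54 with signals below the controls raised to them, and the log2 fold change was 4.49 with no pseudocount.

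Cox8a, its ubiquitous counterpart, had signals of 7088.6, 7158.5 and 8007.2 on the differentiated arrays, against 6203.0, 8551.8 and 6537.7 on the proliferating arrays. The differentiated arrays lay within the range of the proliferating ones. The means were 7418 ± 511.4 in differentiated cells and 7098 ± 1271 in proliferating cells (SD, n = 3 each), which gave a log2 fold change of 0.08 with a 95% interval of -0.20 to 0.35 (limma adjusted p = 0.80). Probe set 1416112_at gave 0.07 (limma adjusted p = 0.85), and 1436409_at was at background on all 6 arrays and is not read.

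Cox7a1, the muscle form of subunit 7a, was dim in both groups. Its signals were 116.2, 171.8 and 152.8 on the differentiated arrays, against 89.9, 112.4 and 78.2 on the proliferating arrays, all above the controls. The groups did not overlap, with differentiated arrays higher, which was the case for 14.9% of all probe sets, and the nearest arrays of the groups were at 116.2 in differentiated and 112.4 in proliferating cells. The means were 146.9 ± 28.26 in differentiated cells and 93.5 ± 17.38 in proliferating cells (SD, n = 3 each). The log2 fold change of 0.57 (standard error 0.29, 95% interval -0.06 to 1.21) was not called (limma adjusted p = 0.28), and the fold of 1.49 had an interval of 0.958 to 2.32.

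Cox7a2, the ubiquitous form of subunit 7a, had signals of 8592.1, 9332.0 and 10607.1 on the differentiated arrays, against 9581.2, 11283.7 and 10310.2 on the proliferating arrays. The groups overlapped, with means of 9510 ± 1019 in differentiated cells and 10390 ± 854.2 in proliferating cells (SD, n = 3 each). The log2 fold change was -0.13 (95% interval -0.38 to 0.12, limma adjusted p = 0.59), and the second probe set gave -0.14 (limma adjusted p = 0.55).

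Cox7a2l, also known as Scaf1, is related to Cox7a2 in sequence and joins complex IV to complex III in supercomplexes. Its brightest probe set, 1432264_x_at, had signals of 1946.6, 2164.0 and 2125.0 on the differentiated arrays, against 1725.0, 1924.0 and 1665.5 on the proliferating arrays. Every differentiated array was higher, and the log2 fold change of 0.23 (95% interval 0.02 to 0.44) was not called (limma adjusted p = 0.17). The other probe sets gave 0.01 for 1421772_a_at (limma adjusted p = 0.96) and -0.15 for 1432263_a_at (limma adjusted p = 0.40). At the last of these every differentiated array was lower than every proliferating array, with 1416.1, 1484.6 and 1482.8 against 1579.7, 1709.4 and 1566.8, so the 3 probe sets do not give a common direction. The suffixes _x_at and _s_at mark probe sets whose probes can also match other sequences, which holds for the brightest probe sets of Cox7a2l and Cox8a. It also holds for the second probe sets of Cox6a2, 1457633_x_at, which was called higher, and of Cox6a1, 1417418_s_at. In 7 of the 10 ubiquitous probe sets the groups overlapped, where 27.2% of all probe sets had groups that did not.

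**Figure D2:**
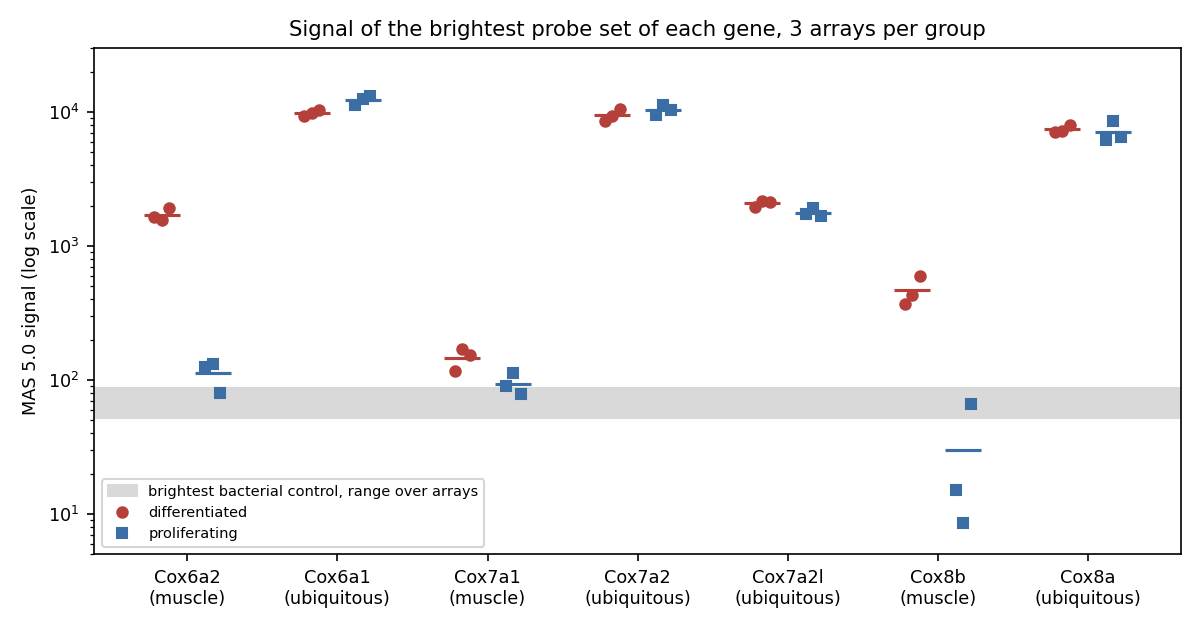
MAS5 signal on a log axis of the brightest probe set of each of the 7 genes, with 1 point per array (red circles differentiated, blue squares proliferating, 3 each), bars at the group means and a grey band for the range of the brightest bacterial control. Cox6a2 and Cox8b separate widely between the groups, Cox7a1 is close to the band in both, and the lowest signal among the 4 ubiquitous genes is 1665.5.

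**Figure D3:**
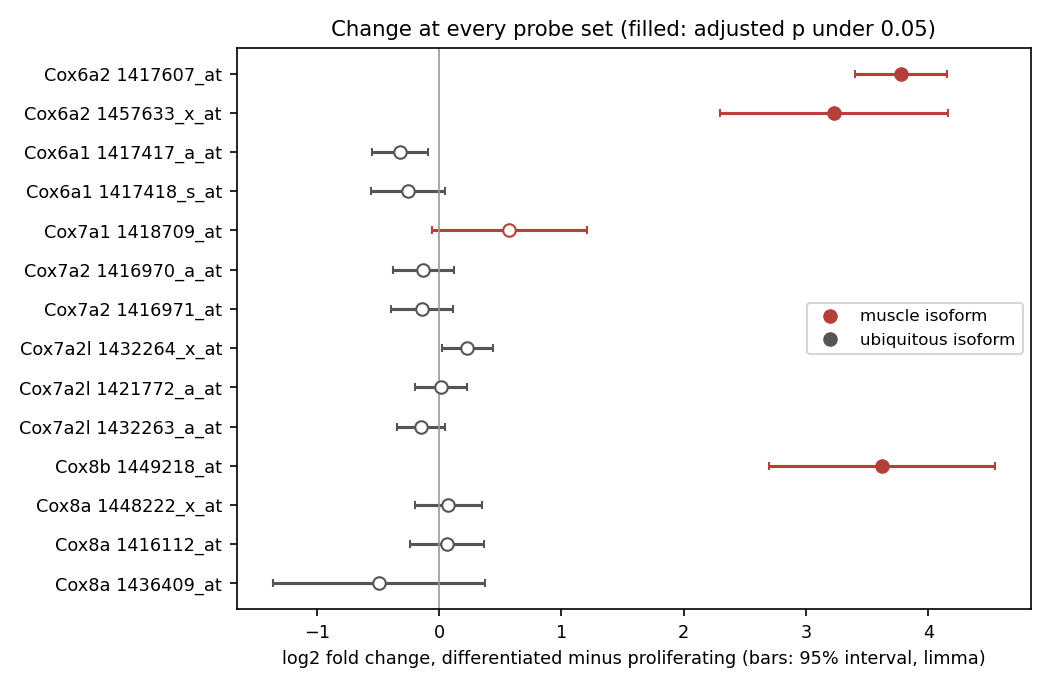
Log2 fold change, differentiated minus proliferating, at each of the 14 probe sets, with 95% intervals from limma, filled where the adjusted p was under 0.05. The 3 filled points, 2 of Cox6a2 and 1 of Cox8b, lie above 3, and all others lie between -0.49 and 0.57.

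The pairs were compared within each array, as the log2 signal of the muscle gene minus that of its ubiquitous paralogue. Signals of different probe sets cannot be set against each other as amounts, so only the change of this difference between the groups is read. With 3 arrays against 3 the exact 2-sided permutation test cannot go below p = 0.1, and Benjamini-Hochberg adjustment over the 7 comparisons made gives at least 0.117. Among single probe sets, 27.2% of all had groups that did not overlap, and such a share was not computed for pairs. The Cox6a2 minus Cox6a1 difference was -2.51, -2.63 and -2.41 on the differentiated arrays, against -6.33, -6.41 and -7.11 on the proliferating arrays. It changed by 4.10, or 17.1-fold, with no overlap (exact permutation p = 0.1). The Cox8b minus Cox8a difference was -4.21, -4.00 and -3.70 on the differentiated arrays, against -7.70, -8.51 and -6.34 on the proliferating arrays, a fitted change of 3.54 or 11.7-fold with no overlap (exact permutation p = 0.1). With 2 of the 3 proliferating Cox8b arrays at background the size is not fixed: the change was 2.63 with signals below the controls raised to them and 4.42 with no pseudocount.

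The balance within subunit 7a moved less. The Cox7a1 minus Cox7a2 difference was -6.04, -5.64 and -5.98 on the differentiated arrays, against -6.52, -6.47 and -6.79 on the proliferating arrays, a change of 0.70 or 1.63-fold with no overlap (exact permutation p = 0.1). Against Cox7a2l the change of Cox7a1 was 0.34 or 1.27-fold, again without overlap (exact permutation p = 0.1). It was 0.54 with the probe sets of Cox7a2l averaged and 0.20 under quantile normalization, where the exact permutation p was 0.2. The muscle genes were also set against each other, a comparison added after the values were seen. Cox6a2 changed by 3.20 more than Cox7a1 on the log2 scale, or 9.22-fold, and Cox8b by a fitted 3.05 more than Cox7a1, in each case without overlap between the groups (exact permutation p = 0.1 for each). The second of these was 2.06 with signals below the controls raised to them and 3.84 with no pseudocount. Between Cox6a2 and Cox8b the difference in change was 0.16, with overlapping groups (exact permutation p = 1.0), and neither its sign nor its size was stable. It was -0.54 with no pseudocount, -0.12 with the probe sets of Cox6a2 averaged and -0.58 without proliferating replicate 3, the array with the Cox8b signal above background. It was 0.70 with the pseudocount at the 40th percentile of all signals (exact permutation p = 0.2) and 1.25, with separate groups, when signals below the controls were raised to them (exact permutation p = 0.1).

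**Figure D4:**
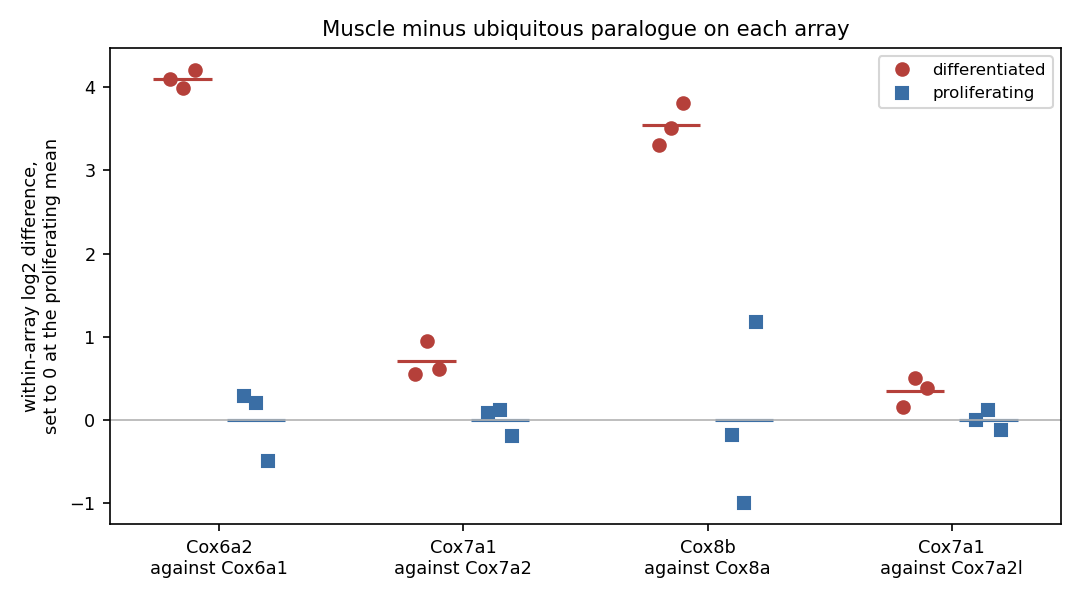
Within-array log2 difference of each muscle gene and a ubiquitous paralogue, set to 0 at the mean of the proliferating arrays (red circles differentiated, blue squares proliferating, 3 arrays each, bars at the means). The differentiated means lie at 4.10, 0.70, 3.54 and 0.34 from left to right, and in none of the 4 pairs do the groups overlap. Among single probe sets, 27.2% of all had groups that did not overlap, and both pairs with Cox7a1 share its probe set. Of the 3 proliferating Cox8b signals 2 are at background, and with these raised to the controls the 3.54 becomes 2.63.

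Of the other nuclear-encoded subunits that were listed and measured, none was called in either direction. Of 12 listed genes 11 had a named probe set, and the brightest of each gave 0 higher and 0 lower in limma, with 2 genes at an unadjusted p under 0.05 and 1, Cox5a, called lower by the regularized test. By brightest probe set, 17.6% of all genes were called, 8.63% higher and 9.00% lower. The median log2 fold change of the 11 was -0.06, against 0.06 over all genes, and the 7 that were above the controls on every array ran from -0.35 to 0.12. Cox7b had no named probe set. Cox7c, with means of 43.9 in differentiated and 56.87 in proliferating cells, was above its control on 1 differentiated array alone. Cox4i1, a subunit at the entry of the assembly path, had a signal of 7078 ± 390.8 in differentiated cells and 8316 ± 617.8 in proliferating cells (SD, n = 3 each), which gave a log2 fold change of -0.23 (limma adjusted p = 0.20). Cox4i2, the form of lung and low oxygen, was dim, with signals of 44.6, 43.6 and 74.0 on the differentiated arrays against 79.8, 60.7 and 90.7 on the proliferating arrays (limma adjusted p = 0.63). Cox5a, which binds to Cox4, had a log2 fold change of -0.35 and was not called by limma with all arrays and all probe sets (adjusted p = 0.087). With all arrays but without dim probe sets limma called it lower (-0.35, adjusted p = 0.036). It was also called lower without proliferating replicate 1 (-0.46, limma adjusted p = 0.041).

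Among 22 measured assembly factors of the complex, 1 was higher, 2 were lower and 19 were not called, with a median of -0.09. Of all genes by brightest probe set, 17.6% were called, so this list does not stand out. Cox17, a copper chaperone that feeds the oxidase, had signals of 3858.2, 4106.2 and 4762.2 on the differentiated arrays, against 2774.9, 2924.8 and 3301.9 on the proliferating arrays, a log2 fold change of 0.50 (limma adjusted p = 0.0076). The other Cox17 probe set gave -0.18 and was not called. Cmc2, a small twin-cysteine protein of the intermembrane space, had 249.7, 284.4 and 303.4 on the differentiated arrays, against 841.8, 964.1 and 794.0 on the proliferating arrays, a log2 fold change of -1.58 (limma adjusted p = 3.7e-06). Of the 4 probe sets of Cmc2 2 were called lower, and the 4 ran from -1.58 to -0.27. Cox18, an inner membrane factor that inserts part of a core subunit, was lower by a small margin (-0.39, limma adjusted p = 0.03). Its call was lost when differentiated replicate 1 (limma adjusted p = 0.11) or 2 (0.09) was left out, and likewise for proliferating replicate 1 (0.12) and 2 (0.072).

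Of 4 measured partners of the oxidase, 1 was higher and 1 lower, where 8.63% of all genes were higher and 9.00% lower. Higd2a, a factor of supercomplex assembly, had signals of 2222.0, 2206.6 and 2276.4 on the differentiated arrays, against 909.4, 1190.7 and 975.9 on the proliferating arrays, a log2 fold change of 1.12 (limma adjusted p = 1.4e-05). Cycs, the somatic cytochrome c that brings electrons to the complex, had 4267.3, 4311.5 and 5391.6 on the differentiated arrays, against 6314.9, 7145.6 and 7960.3 on the proliferating arrays, a log2 fold change of -0.62 (limma adjusted p = 0.0039). The groups did not overlap for either gene. Of the 4 probe sets of Cycs 2 were called lower, and the 4 ran from -0.69 to 0.30.

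Other mitochondrial proteins with a muscle and a common form were set beside the oxidase. Of 5 measured genes, Cox4i1 and Cox4i2 left out, 0 were called higher by limma or by the regularized test, 3 were lower, and the same 3 were at an unadjusted p under 0.05. In limma 8.63% of all genes were higher and 9.00% lower by brightest probe set. Slc25a4, the ADP/ATP carrier of heart and muscle, had 6119.9, 5847.5 and 6102.8 on the differentiated arrays, against 8502.3, 9286.8 and 7714.0 on the proliferating arrays, a log2 fold change of -0.49 (limma adjusted p = 0.0054). Slc25a5, the carrier form of dividing cells, had 4504.7, 4395.3 and 4801.4 on the differentiated arrays, against 8062.3, 8443.5 and 9920.8 on the proliferating arrays, a log2 fold change of -0.94 (limma adjusted p = 4.7e-05). Both carriers were thus lower by brightest probe set, which for each is an _x_at probe set. Of the 4 probe sets of Slc25a4 3 were called lower, and the 4 ran from -0.64 to 0.46, while all 8 of Slc25a5 were called lower. Cpt1a, the common form of carnitine palmitoyltransferase, was lower by 0.74 (log2 fold change -0.74, limma adjusted p = 0.00012) at 1 of its 3 probe sets, and Cpt1b, its muscle form, is not named on the arrays as used here. Ckmt2, the mitochondrial creatine kinase of striated muscle, was at background on all 6 arrays, and Ckmt1, the common form, was above its control on 1 differentiated array alone, with 55.8, 19.1 and 21.7 on the differentiated arrays against 8.2, 42.5 and 8.2 on the proliferating arrays.

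Among 12 regulators of nuclear respiratory and muscle mitochondrial genes, 3 were higher and none lower by brightest probe set, by limma and by the regularized test alike. In limma 8.63% of all genes were higher and 9.00% lower. The 3 are the MEF2 factors of the list, which act with myogenic factors at muscle promoters. Mef2c had 605.5, 593.4 and 559.3 on the differentiated arrays, against 123.3, 41.3 and 87.7 on the proliferating arrays, a log2 fold change of 2.69 (limma adjusted p = 2.4e-05). Mef2a gave 1.48 (limma adjusted p = 2.5e-06) and Mef2d 1.10 (limma adjusted p = 5.9e-05), with 4 of 6 and 1 of 3 probe sets called. Nrf1, Gabpa, Esrra and Tfam, factors of nuclear respiratory genes and of mitochondrial DNA, had log2 fold changes of 0.09, 0.04, -0.04 and -0.19 at their brightest probe sets and were not called there. Of the 4 Nrf1 probe sets, which ran from -1.63 to 0.09, 1 was called lower by limma, with 20.1, 6.1 and 9.3 on the differentiated arrays, all at background, against 71.8, 71.0 and 56.3 on the proliferating arrays, at least 1.12-fold lower. Gabpb1, a partner of Gabpa, was likewise called lower at 1 of 2 probe sets, with changes of -0.80 and 0.11. Ppargc1a, the coactivator PGC-1alpha, gave 0.58 at low signal (limma adjusted p = 0.62).

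**Figure D5:**
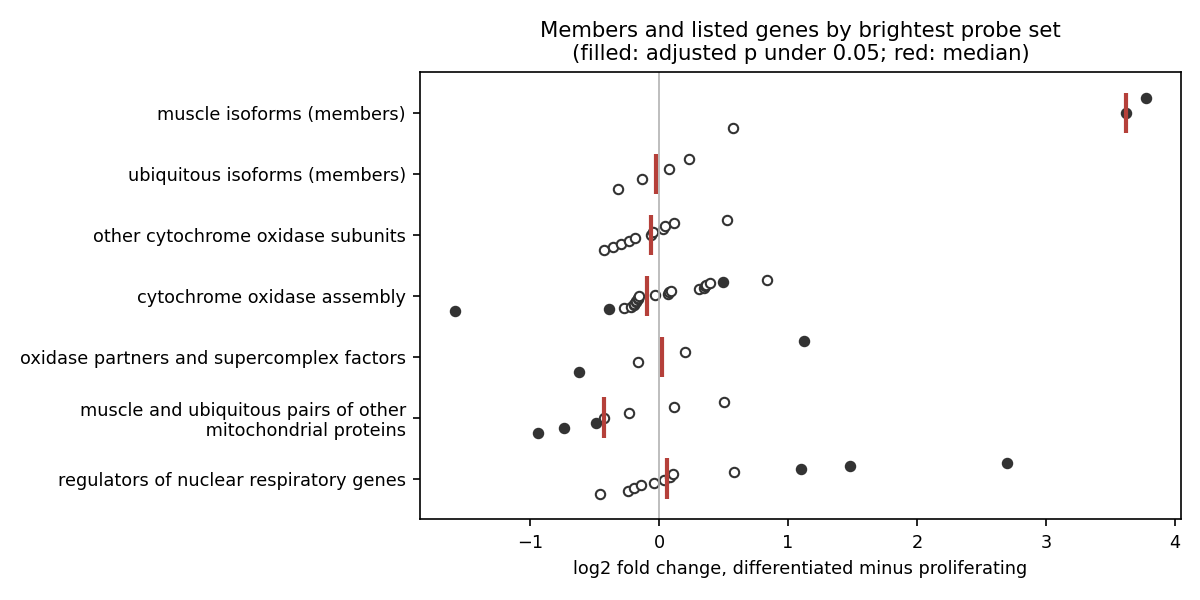
Log2 fold change, differentiated minus proliferating, of each gene by its brightest probe set (points, filled where the limma adjusted p was under 0.05) in the 2 sets of isoforms and 5 lists of related genes, with the median of each as a red bar; Cox4i1 and Cox4i2 stand in the row of other subunits and in that of pairs. Cox6a2 and Cox8b lie above 3.5, while the other cytochrome oxidase subunits lie between -0.43 and 0.52 with no filled point.

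The muscle isoforms are also used by heart and, for Cox7a1 and Cox8b, by brown adipocytes, so markers of those cells were read beside them. Of 8 heart muscle markers (Myh6, Nppa, Nppb, Myl7, Tnni3, Mybpc3, Nkx2-5 and Gata4) 0 were called by limma or the regularized test and 0 had an unadjusted p under 0.05. Their summed signal was 581.4 to 654.1 on the differentiated arrays against 645.6 to 649.8 on the proliferating arrays. Of the 8, only 2, Mybpc3 and Gata4, were above the controls on every array, and Myh6 and Myl7 were at background on all arrays. Tnnt2, the cardiac form of troponin T, and Myh7, the slow myosin heavy chain, were not on this list. Both were higher, with log2 fold changes of 3.41 and 4.27 (limma adjusted p = 3e-09 and 6.2e-06). Of 6 brown adipocyte markers 1, Dio2, was higher (log2 fold change 2.12, limma adjusted p = 1.4e-05). Their summed signal was 940.8 to 1026.1 on the differentiated arrays against 463.4 to 536.2 on the proliferating arrays. Most of that difference is Dio2 itself, with a mean of 646.8 in differentiated and 141.2 in proliferating cells. Ucp1 and Cidea, which define brown fat, were at background on all 6 arrays, and Prdm16, Elovl3 and Zic1 were not called. Of 6 measured adipocyte markers 2 were higher (Cebpa and Cd36) and 1 lower (Pparg), with summed signals of 937.6 to 1156.2 on the differentiated arrays against 597.1 to 643.0 on the proliferating arrays, Fabp4 and Adipoq were not called, and Lep was at background on all arrays. Of 5 fibroblast markers 1 was higher (Pdgfra), 1 lower (Twist2) and 3 not called (Thy1, Dpt and Col14a1). Their summed signals were 508.8 to 581.1 on the differentiated arrays against 831.8 to 957.7 on the proliferating arrays. The sum follows Twist2, with means of 157.6 in differentiated and 635.8 in proliferating cells, while Pdgfra went the other way (267.0 against 114.0). The part of adipocyte or fibroblast transcripts in the changes of Cox6a2 and Cox8b was not tested.

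For each member the genes with the most similar profile over the 6 arrays were taken from 11448 genes brighter than the median, by the root mean square difference of the log2 signals after centring each profile. Nearest to Cox6a2 were Lmod3, a leiomodin of striated muscle thin filaments (0.12), Tgm2, a transglutaminase (0.21), and Tnnt2, the cardiac form of troponin T (0.21). Lmod3 had 1538.4, 1437.6 and 1645.5 on the differentiated arrays, against 92.0, 131.0 and 70.9 on the proliferating arrays. Nearest to Cox8b were Acsl6, an acyl-CoA synthetase (0.28), Coq8a, a factor of coenzyme Q synthesis (0.43), and Myh7, the slow myosin heavy chain (0.44). Acsl6 had 286.2, 312.9 and 418.8 on the differentiated arrays, highest on replicate 3 as for Cox8b, against 22.0, 8.5 and 55.2 on the proliferating arrays, all of them at background. Nearest to Cox7a1 were 4921525O09Rik (0.053), Tmem121 (0.075) and Cep83os (0.083). Nearest to Cox6a1 were Stk16, a kinase (0.018), and the ribosomal protein genes Rpl41 (0.024) and Rps18 (0.025). Rpl41 had 29201.2, 31433.3 and 32842.7 on the differentiated arrays, against 36626.3, 39297.2 and 40856.9 on the proliferating arrays, which keeps the order of the arrays seen for Cox6a1. The nearest genes were Mrps21, Dnajc15 and Pygo2 for Cox7a2, Mmadhc, Galns and Fam114a2 for Cox7a2l, and Usp21, Plin3 and Wbp1 for Cox8a. With 6 arrays in 2 groups, such a distance reflects the size of the change and the level of single arrays together.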

How the data were processed

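The authors deposited an intensity per probe set, the linear MAS5 signal, from 6 Affymetrix mouse arrays, each scaled to a common trimmed mean. The study's methods then used GCRMA, which needs probe-level data not used here. Of 45101 probe sets, 64 controls were left out and 45037 were fitted as log2(signal + 15) with limma 3.58.1 in R 4.3.3 (lmFit, eBayes with trend), 2-sided, with Benjamini-Hochberg adjustment over all of them, and the fit was tested on simulated data. All adjusted p-values are from limma unless the regularized test is named. The probe sets were named by the platform annotation: 34945 have 1 symbol, 932 several and 9160 none here. A gene's value is that of its brightest probe set by mean log2 signal.

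Named are all members, up to 4 called genes of each list with the largest change, both genes of each muscle and ubiquitous pair, the 3 nearest profiles of each member and the markers. Cox5a and 6 regulators that were not called by their brightest probe set were named after their values were seen. Members, lists, markers and tests were chosen with earlier results of these data known. Alternatives covered normalization, pseudocount, dim probe sets, variance model, the regularized test (window 101, 10 prior degrees of freedom), replicate block, each array left out and the probe sets of a gene. Raising signals to the bacterial controls and setting muscle genes against each other were added after seeing the data. The raised signals of single genes were read as values with no test, and pairs with raised signals had the exact permutation test. Promoters are from RefSeq (GRCm38.p6). Python 3.11.15 was used with pandas 2.3.3, numpy 2.4.6 and scipy 1.17.1.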

Additional observations from a re-analysis of the deposited data

How the results depend on the processing

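Of 243 alternative values, 231 kept their direction and side of the threshold (counts stayed within 1.5 times). The pair comparisons among them could change in direction only, since their exact permutation p cannot go below 0.1. The same holds for gene values raised to the bacterial controls, which had no call. Cox6a2 and Cox8b were called under every alternative with a test. Cox6a1 passed with no pseudocount (-0.32, limma adjusted p = 0.04), without dim probe sets (-0.32, adjusted p = 0.015) and in the regularized test (-0.32, adjusted p = 0.027). Uncalled changes turned for Cox7a2 under quantile normalization (0.0071) and for Cox8a without proliferating replicate 1 (-0.014) or as a mean over its probe sets (-0.12). Cox6a2 against Cox8b turned with no pseudocount (-0.54), without proliferating replicate 3 (-0.58) and with probe sets averaged (-0.12). With eBayes without trend 2669 probe sets were called (1367 higher and 1302 lower), against 5659, and Cox17, Cox18, Cycs and Slc25a4 were not called (limma adjusted p = 0.18, 0.24, 0.13 and 0.15). The cause of these shifts was not tested. Counting a regulator as called by any probe set gave 5, 3 higher and 2 lower (Nrf1 and Gabpb1).

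With each array left out in turn, the log2 fold change was 3.58 to 3.89 for Cox6a2, 3.26 to 4.16 for Cox8b, 0.46 to 0.72 for Cox7a1, -0.38 to -0.27 for Cox6a1, -0.21 to -0.06 for Cox7a2, 0.19 to 0.29 for Cox7a2l and -0.01 to 0.22 for Cox8a, and Cox6a2 against Cox8b ran from -0.58 to 0.63. Calls over all probe sets then numbered 4254 to 4932, and other oxidase subunits 0 to 1, with Cox5a lower without proliferating replicate 1. Replicate numbers did not pair the arrays (correlations of deviations 0.012, 0.00066 and 0.0094). With the replicate block 5287 probe sets were called and no member's call changed, while Cox18 was not called (limma adjusted p = 0.059). Arrays of 3 per group and signals near the bacterial controls limit Cox7a1 and proliferating Cox8b.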
